A study of Mus musculus with 23 samples.

Results

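The 8 genes described here mark Schwann cells, the glia of peripheral nerve, or encode proteins of the myelin they make. They were Sox10, Foxd3, Erbb3, Cdh19, S100b, Mbp, Pmp22 and Prx, taken as the rows of the deposited table whose symbol equals one of these names. Each matched 1 row, so 8 of 39179 genes are members, and all 8 passed the filter on low values that left 14896 genes for testing. The table holds total RNA of mouse mesenteric arteries, dissected free of fat and veins, from male C57BL/6J mice aged 10 to 12 weeks. One group received angiotensin II (Ang II, a vasoconstrictor peptide) from a subcutaneous osmotic minipump at 1000 ng per kg per min for 7 days (n = 6) and was set against mice 7 days after sham surgery (n = 6). Another received the same dose for 14 days (n = 5) and was set against mice 14 days after sham surgery (n = 6). All groups share strain and sex, and none carries an engineered allele. Each library came from its own animal, with 4471038 to 21509283 reads assigned to genes.

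Schwann cells accompany the sympathetic and sensory axons that run in the outer wall of arteries. Most of those axons are thin and are bundled without myelin by non-myelinating (Remak) Schwann cells, whereas a smaller share of thick axons is myelinated. The lineage depends on the transcription factor SOX10, which keeps ERBB3 expressed; ERBB3 and its partner ERBB2 receive neuregulin-1 from the axon, the signal that sustains Schwann cells and sets myelin thickness. In a whole artery these cells are a small part of the RNA. Fewer Schwann cells and less RNA per cell cannot be told apart in such bulk samples.

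No member gene passed the test in any comparison. With limma on log2(value + 0.5) and adjustment over all genes, 0 of 8 were higher and 0 of 8 were lower after 7 days of Ang II, where 0.819% of all genes tested were called. After 14 days the count was again 0 of 8 in each direction, where 6.06% of all genes were called, 4.04% as higher and 2.01% as lower. The edgeR and DESeq2 tests on recovered reads also called 0 of 8 at both times. At an unadjusted p under 0.05 limma had 1 of 8 at 7 days, against 9.28% of all genes, and 1 of 8 at 14 days, against 24.6%. Pmp22 was that gene at both times. By unadjusted p under 0.05, edgeR had 1 of 8 at each time, against 9.8% and 27.3% of all genes. DESeq2 had 1 of 8 at 7 days, against 10.1%, and 2 of 8 at 14 days, against 28.3%. The animals of a group spread widely in most of the 8 genes, and that spread was shared between genes.

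The label fits the tissue as far as markers go. All 8 members were read in every library. Genes of the other glial and neural crest cells that use SOX10 or make MBP were scarce. Olig2 was at 0 in all 23 libraries and Mog did not exceed 0.141, both genes of oligodendrocytes, the myelinating cells of the brain. The melanocyte genes Pmel and Tyr stayed at or below 0.574 and 0.93. Both lists also hold a gene that other cells make and that passed the filter, Cldn11 with a mean of 1.99 and Mitf with a mean of 15.2. With these the 8 oligodendrocyte markers summed to 0.492 to 5.89 in a library and the 7 melanocyte markers to 11.7 to 23.9.

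The level of a member is given as the authors' normalised read count, and levels of different genes are compared only per kilobase of exon. On that scale, over all 23 libraries, Pmp22 stood first at 40.6 ± 6.15 (SD) per kb. Cdh19 followed at 15.6 ± 6.03, then Erbb3 at 9.45 ± 1.8, S100b at 7.40 ± 2.14 and Mbp at 7.13 ± 1.97. Sox10 at 3.14 ± 1.25, Foxd3 at 2.47 ± 1.06 and Prx at 0.922 ± 0.304 were the lowest. S100b and Mbp lay within their spread of each other, as did Sox10 and Foxd3. The length used was that of all annotated exons of a gene merged, 8.47 kb for Mbp, and the order depends on it. For scale, Scn7a, a sodium channel of non-myelinating Schwann cells, stood at 58.7 ± 13.1 per kb.

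Sox10 encodes the transcription factor that defines the lineage (chromosome 15, 79154908 to 79165240, minus strand, GRCm38/mm10, 5 merged exons). After 7 days its normalised read count was 4.30 at the lowest, 9.02 at the median and 13.2 at the highest in Ang II arteries, against 4.56, 9.38 and 13.2 in sham arteries. The 14-day Ang II arteries had 9.74, 7.22, 22.3, 8.72 and 8.07, against a lowest, median and highest of 4.42, 8.28 and 12.9 in 14-day sham arteries. One 14-day Ang II library, replicate 3, stood above all others, and the other 4 lay inside the sham range. The log2 fold change was -0.08 (95% interval -0.69 to 0.53, limma adjusted p = 0.971) at 7 days and 0.26 (-0.38 to 0.89, adjusted p = 0.634) at 14 days. Without replicate 3 the 14-day value was -0.02.

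Foxd3 encodes a forkhead factor of the neural crest that stays on in glial precursors (chromosome 4, 99656299 to 99658622, plus strand, a single exon). It was read with few reads, between 20 and 230 per library. The 7-day Ang II arteries had 2.50 at the lowest, 5.22 at the median and 9.39 at the highest, against 3.18, 5.53 and 7.17 in sham arteries. At 14 days the Ang II libraries had 6.04, 5.50, 11.5, 4.61 and 5.74, against 2, 5.01 and 10.0 in sham arteries. Groups overlapped at both times. Ang II against sham gave a log2 fold change of 0.00 (95% interval -0.69 to 0.68, adjusted p = 0.998) at 7 days and 0.34 (-0.38 to 1.06, adjusted p = 0.572) at 14 days.

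Erbb3 encodes the neuregulin receptor of Schwann cells and is also made by epithelial cells (chromosome 10, 128567523 to 128589652, minus strand, 28 merged exons). After 7 days it had 46.0, 55.6 and 74.5 (lowest, median, highest) in Ang II arteries, against 54.4, 59.6 and 63.7 in sham arteries. After 14 days the Ang II libraries had 43.3, 40.7, 82.8, 46.8 and 53.1, against 40.4, 53.0 and 74.4 in sham arteries. The sham range at 7 days was the narrowest of any member in any group, with a coefficient of variation of 6.36%. In the limma fit the log2 fold change was -0.04 (95% interval -0.35 to 0.27, adjusted p = 0.971) at 7 days and -0.09 (-0.42 to 0.23, adjusted p = 0.741) at 14 days.

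Cdh19 encodes a cadherin that is nearly restricted to Schwann cells and their precursors (chromosome 1, 110888326 to 110977584, minus strand, 13 merged exons). Its 7-day values were 22.6, 68.5 and 90.2 (lowest, median, highest) in Ang II arteries, against 45.6, 63.1 and 103 in sham arteries. Its 14-day values were 57.2, 66.0, 124, 64.8 and 42.8 in Ang II arteries, against 33.6, 57.4 and 115 in sham arteries. The lowest and the highest library of the series, 5.49-fold apart, were both infused ones, Ang II 7-day replicate 6 and Ang II 14-day replicate 3. Fitted over all libraries, the log2 fold change was -0.16 (95% interval -0.86 to 0.54, adjusted p = 0.946) at 7 days and 0.08 (-0.65 to 0.81, adjusted p = 0.911) at 14 days. The 14-day value was -0.14 without Ang II 14-day replicate 3 and -0.10 without 14-day sham replicate 4. The 7-day value was 0.10 without Ang II 7-day replicate 6.

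S100b encodes a calcium-binding protein of glia that adipocytes also make (chromosome 10, 76253853 to 76261159, plus strand, 3 merged exons). The gene overlaps Dip2a on the other strand without shared exon bases, and the strand setting of the counting is not given in the sources used here. After 7 days S100b had 8.18, 9.80 and 15.5 (lowest, median, highest) in Ang II arteries, against 8.86, 10.5 and 19.8 in sham arteries. After 14 days the Ang II libraries had 8.18, 10.5, 10.5, 8.12 and 7.43, against 8.77, 10.3 and 18.2 in sham arteries. The sham maximum at each time lay above every infused library. The log2 fold change was -0.10 (95% interval -0.49 to 0.28, adjusted p = 0.936) at 7 days and -0.37 (-0.77 to 0.04, adjusted p = 0.248) at 14 days, the member furthest below 0.

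Mbp encodes myelin basic protein, which holds the inner faces of the myelin membrane together (chromosome 18, 82475146 to 82585637, plus strand, 13 merged exons). The same locus also gives non-myelin transcripts in other cells, which a gene-level value does not separate. Its 7-day values were 40.6, 66.9 and 86.6 (lowest, median, highest) in Ang II arteries, against 48.5, 62.6 and 82.9 in sham arteries. Its 14-day values were 38.2, 47.7, 84.9, 42.8 and 48.5 in Ang II arteries, against 41.6, 54.5 and 96.2 in sham arteries. Of the 14-day infused libraries 4 stood below the sham median and replicate 3 above it. Ang II against sham gave a log2 fold change of -0.01 (95% interval -0.45 to 0.43, adjusted p = 0.995) at 7 days and -0.20 (-0.66 to 0.27, adjusted p = 0.612) at 14 days.

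Prx encodes periaxin, a scaffold protein of myelinating Schwann cells that links the outer myelin surface to the basal lamina (chromosome 7, 27499324 to 27520214, plus strand, 6 merged exons). It was the lowest member per kilobase, read with 10 to 197 reads per library. It shares 300 exon bases with the antisense gene Gm15541, whose mean value was 0.156. The 7-day values were 2.62, 4.97 and 5.94 (lowest, median, highest) in Ang II arteries, against 3.26, 4.87 and 7.62 in sham arteries. The 14-day Ang II libraries had 5.68, 3.57, 9.89, 4.84 and 3.6, against 3.67, 5.22 and 7.93 in sham arteries. Both pairs of groups overlapped. In the limma fit the log2 fold change was -0.08 (95% interval -0.57 to 0.41, adjusted p = 0.966) at 7 days and -0.05 (-0.56 to 0.46, adjusted p = 0.916) at 14 days.

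Pmp22 encodes peripheral myelin protein 22, a membrane protein of compact myelin that fibroblasts also make (chromosome 11, 63128982 to 63159547, plus strand, 8 merged exons). After 7 days it had 85.4, 105 and 120 (lowest, median, highest) in Ang II arteries, against 66.3, 87.1 and 110 in sham arteries. After 14 days the Ang II libraries had 99.9, 101, 117, 110 and 95.8, against 76.1, 86.1 and 99.8 in sham arteries. All infused libraries of both times except 7-day replicate 6 stood above the sham median of their time, and the groups still overlapped. Pmp22 averaged 105 ± 13.2 in Ang II arteries and 86.7 ± 15.2 in sham arteries at 7 days, and 105 ± 8.65 in Ang II arteries and 87.8 ± 10.4 in sham arteries at 14 days (SD). Fitted over all libraries, the log2 fold change was 0.28 (95% interval 0.06 to 0.50) at 7 days, with an unadjusted limma p of 0.0157 and an adjusted p of 0.349. It was 0.26 (0.03 to 0.49) at 14 days, with an unadjusted p of 0.0295 and an adjusted p of 0.153. Scaling each library to its total reads would call it at both times, with log2 fold changes of 0.51 (adjusted p = 0.0245) and 0.52 (adjusted p = 0.00919), but that scaling moves the median log2 fold change of all genes up by 0.22 and 0.25. Less that shift, both values come close to those given first. The fibroblast genes Col14a1, Pi16 and Lum were called higher at both times, 3 of 6 markers of that cell type, against 0.819% and 6.06% of all genes called. Of these markers 6 had log2 fold changes above 0 at 7 days and 4 at 14 days, with the lowest at -0.14. Group-centred Pmp22 had a Pearson's r of -0.0054 with the summed value of the 6 markers, and 0.14 without Ang II 14-day replicate 3. The part of fibroblasts in the Pmp22 values was not tested. With the leading digits of the animal numbers as a term all 3 calls were lost at 14 days (limma adjusted p = 0.0842 for Col14a1, 0.186 for Pi16 and 0.194 for Lum). Lum at 14 days was also lost with TMM scaling (adjusted p = 0.0502) and without any one of 7 single libraries (0.0541 to 0.0976), among other settings, and Pi16 at 7 days without Ang II 7-day replicate 1 (0.0661) or 6 (0.0521).

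Pmp22 has several transcription start sites, and its gene-level value adds them together. Transcripts from the most upstream start are known from myelinating Schwann cells, and those from downstream starts from many tissues. The 250 bases before the first and the last of the 4 starts in the RefSeq promoter table (GRCm38.p6) are shown because they differ in base composition. Capitals mark CpG pairs, which are 3 in the first and 27 in the second, against a median of 6 over 32851 promoters.
Pmp22 first start, chr11:63128732-63128981, plus strand: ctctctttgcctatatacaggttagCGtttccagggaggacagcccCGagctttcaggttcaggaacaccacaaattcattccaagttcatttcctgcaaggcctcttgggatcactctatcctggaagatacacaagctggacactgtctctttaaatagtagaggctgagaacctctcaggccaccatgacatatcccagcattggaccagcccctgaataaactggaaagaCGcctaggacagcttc
Pmp22 last start, chr11:63132553-63132802, plus strand: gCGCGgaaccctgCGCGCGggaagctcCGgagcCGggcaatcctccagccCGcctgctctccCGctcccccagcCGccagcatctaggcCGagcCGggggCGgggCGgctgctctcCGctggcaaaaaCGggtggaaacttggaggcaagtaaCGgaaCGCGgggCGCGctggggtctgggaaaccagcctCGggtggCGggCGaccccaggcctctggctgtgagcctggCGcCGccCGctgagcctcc
The first holds 48.8% G and C and the last 73.6%, against a median of 52.4%. The table held promoters of 4 of the 8 members (Foxd3, Prx, S100b and Pmp22). Over their 300-base windows neither ACAAAG nor ACAATG, letters of the kind SOX proteins bind, was found on either strand. Of all promoters 28.6% hold at least 1 of them. Promoters of 4 genes are too few to set against that share, and the other members had none to search.

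**Figure D1:**
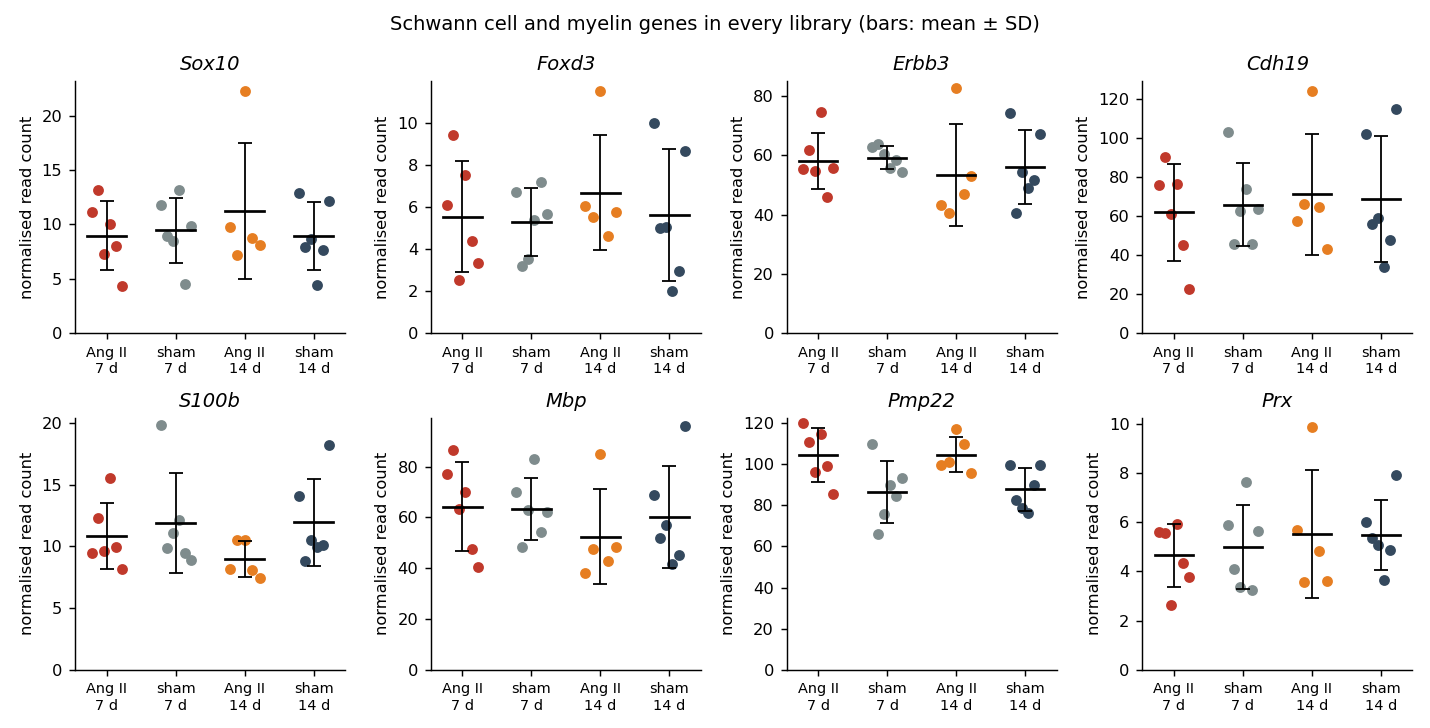
Normalised read counts (y axis, from 0) of the 8 genes in every library, with Ang II left of sham at 7 and at 14 days; points are libraries and bars are mean ± SD. The groups overlap for every gene, and Ang II 14-day replicate 3 stands at the top of its group for 7 genes and shares the top, at 10.5, for S100b.

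Set side by side, the members' fold changes lay around 0. Their median log2 fold change was -0.06 at 7 days, with 1 of 8 above 0, and 0.01 at 14 days, with 4 of 8 above 0. The medians over all genes tested were 0.00 and 0.03. In 0 of 16 pairings of a member with a time did the Ang II and sham libraries separate without overlap, against 1.22% of all genes tested at 7 days and 3.65% at 14 days. The intervals were narrow for Pmp22 and Erbb3 and wide for Sox10, Foxd3 and Cdh19. For Cdh19 at 14 days they still allow a log2 difference of -0.65 or of 0.81, so changes up to that size were not excluded. What size of change these numbers of animals could detect was not computed.

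**Figure D2:**
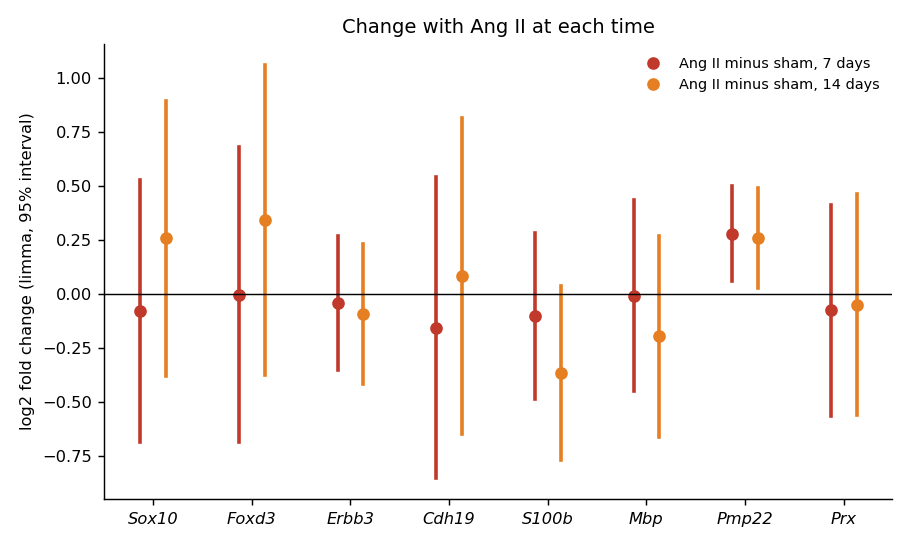
Log2 fold change of Ang II against sham at 7 days (red) and 14 days (orange) for each gene, from limma, with 95% intervals as lines. Only the Pmp22 intervals lie wholly above 0, at 0.06 to 0.50 and 0.03 to 0.49.

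The response did not differ detectably between the times. For the 14-day response minus the 7-day response, limma called 0 of 8 members and 0% of all genes; at an unadjusted p under 0.05 it had 0 of 8 members, against 9.37% of all genes. The same count was 0 of 8 for edgeR and for DESeq2, against 11.9% and 12.2%. The members' differences ran from -0.26 (S100b) to 0.34 (Foxd3). Sham arteries at 14 days against sham arteries at 7 days likewise gave 0 of 8 members called and 0% of all genes by limma, with 0 of 8 at an unadjusted p under 0.05 by limma, edgeR and DESeq2, against 7.57%, 7.47% and 7.21% of all genes. Those fold changes ran from -0.11 for Mbp to 0.15 for Prx.

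The animals of a group differed more in these genes than in most genes. The within-group SD on the log2 scale was 0.614 for Foxd3, 0.61 for Cdh19 and 0.544 for Sox10, against a median of 0.244 over all genes tested. These stood at the percentiles 94.5, 94.4 and 92.3. Prx at 0.435, Mbp at 0.395 and S100b at 0.343 were lower, Erbb3 at 0.277 was near the median, and Pmp22 at 0.19 lay below it.

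Deviations from the group mean went together over the genes. All 8 members lay above their group mean in 6 of the 23 libraries, which were Ang II 7-day replicates 2 and 4, 7-day sham replicate 1, Ang II 14-day replicate 3 and 14-day sham replicates 1 and 6. All 8 lay below it in 3, which were Ang II 7-day replicates 5 and 6 and 14-day sham replicate 4. The median deviation over the 8 genes was 0.78 in Ang II 14-day replicate 3, the highest, and -0.48 in 14-day sham replicate 4, the lowest. High and low libraries occurred in infused and in sham animals.

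**Figure D3:**
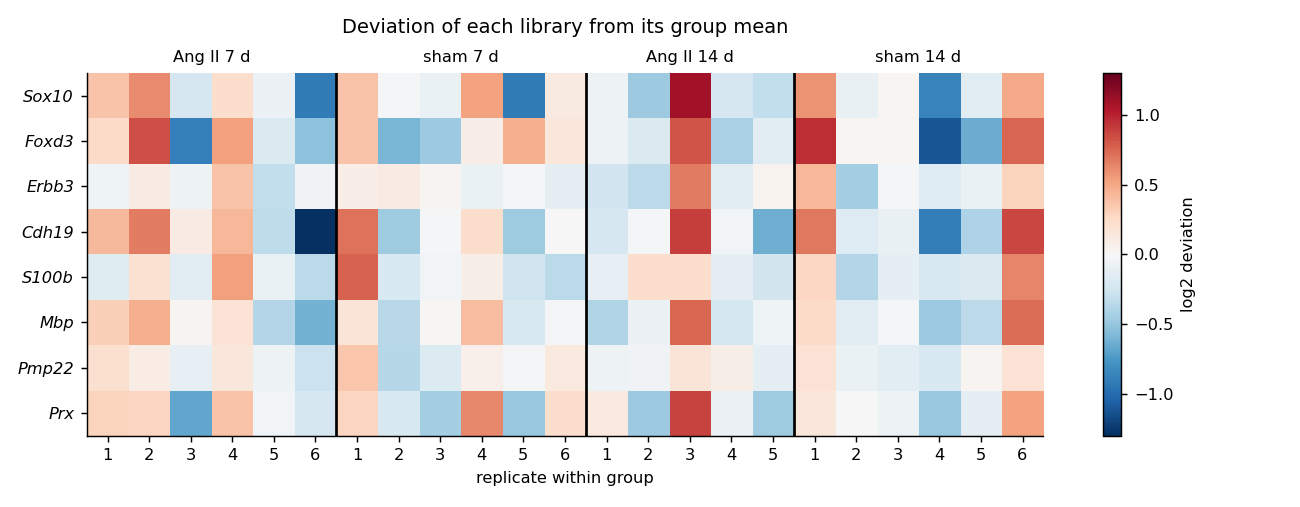
Log2 deviation of each library (columns, by replicate within the 4 groups, Ang II left of sham at each time) from its group mean, for the 8 genes (rows); red is above and blue below the mean. Whole columns share a colour, such as Ang II 14-day replicate 3 with a median of 0.78 and 14-day sham replicate 4 with -0.48.

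Taken pair by pair, the group-centred values of the members correlated positively across the 23 libraries in 28 of 28 pairs. Pearson's r ran from 0.40 to 0.90 with a median of 0.68, and Spearman's rho from 0.35 to 0.90. Permuting libraries within groups (100000 resamples, two-sided, adjusted over the 28 pairs) gave adjusted p-values of at most 0.031 for r and at most 0.11 for rho. The closest pair was Mbp with Cdh19 (r = 0.90, adjusted permutation p = 9.3e-05; rho = 0.90, adjusted permutation p = 0.00019). Sox10 with Cdh19 had r = 0.88 (adjusted permutation p = 9.3e-05) and rho = 0.83 (0.00019), and Sox10 with Prx had r = 0.84 (0.00011) and rho = 0.88 (0.00019). The loosest was Pmp22 with Erbb3 (r = 0.40, adjusted permutation p = 0.031; rho = 0.35, adjusted permutation p = 0.11), and the rho of Erbb3 with Prx also missed the threshold (0.37, adjusted permutation p = 0.11).

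All 28 values of r stayed positive with libraries left out and with another scaling. With the 2 libraries farthest from the median of the first gene of a pair left out, r ran from 0.30 to 0.88. The first gene was the earlier in the order Sox10, S100b, Mbp, Pmp22, Cdh19, Erbb3, Prx and Foxd3. Without Ang II 14-day replicate 3 it ran from 0.32 to 0.88, and with TMM scaling from 0.37 to 0.89. Within animals whose numbers start with 26 (7 libraries) r ran from 0.33 to 0.96, and with 28 (6 libraries) from 0.41 to 0.96. With 27 (8 libraries) 26 of 28 pairs were positive, and Pmp22 with Erbb3 was at -0.13 and Mbp with Erbb3 at 0.00. Cdh19 had the highest median r with the other members, 0.76, and Erbb3 the lowest, 0.56.

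**Figure D4:**
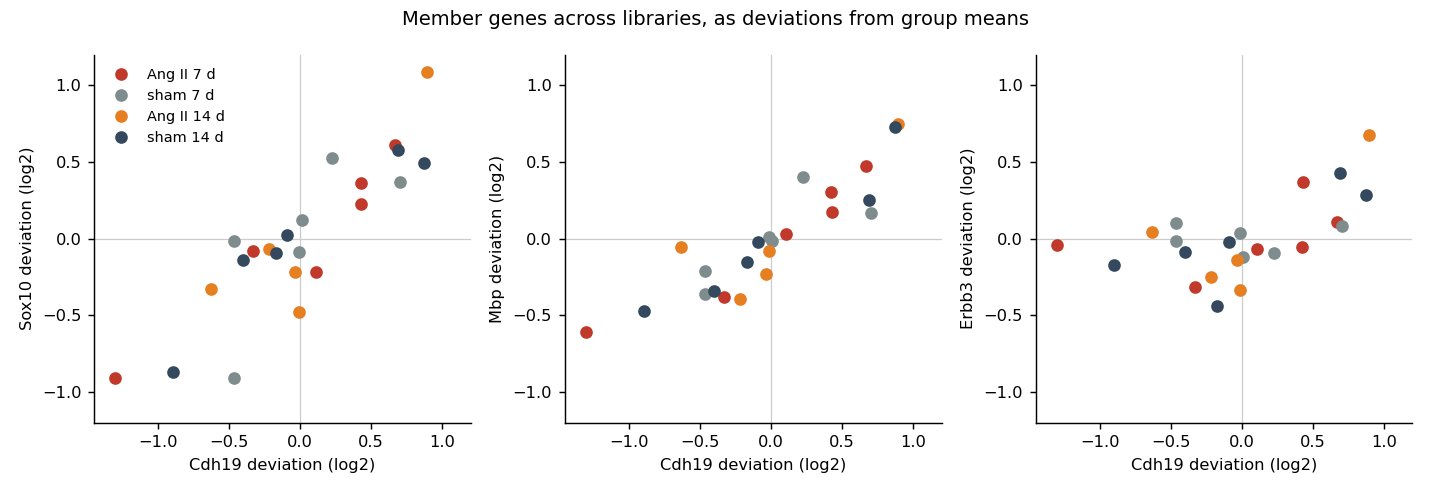
Deviations from group means (log2) of Sox10, Mbp and Erbb3 (y axes) against Cdh19 (x axes), 1 point per library, coloured by group. Sox10 (r = 0.88) and Mbp (r = 0.90) follow Cdh19 closely and Erbb3 (r = 0.56) loosely, with infused and sham libraries mixed along the line.

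The genes whose deviations over the 23 libraries were most like the mean of the 8 members included further genes known from glia. Kcna6, a voltage-gated potassium channel, had the highest likeness (Pearson's r = 0.957, rho = 0.869). Aatk, a membrane kinase, followed with r = 0.955, and then came Csmd1 (0.935), Adamts20 (0.928) and Lgi4 (0.924), a secreted Schwann cell protein required for peripheral myelination in mice. Adam23, Gjc3, Sorcs1, Gpr37l1 and Grik2 completed the first 10 with r from 0.917 to 0.92. Gjc3 encodes a gap junction protein of myelinating glia. The nearest genes differed between members. Lgi4 was nearest to Mbp (r = 0.952), Grik2, a glutamate receptor subunit, to Cdh19 (0.958), Aatk to Sox10, Prx and Foxd3 (0.913, 0.899 and 0.85), Cyp2j9 to S100b (0.879), Fads6 to Pmp22 (0.873) and Spata13 to Erbb3 (0.873). These correlations are a description of the libraries, chosen as the highest among all genes.

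Further genes of the same cells and of their signals were followed in lists, to be read against the 0.819% of all genes called at 7 days and the 6.06% called at 14 days. Of 16 further Schwann cell markers, all tested, 0 were called at 7 days by limma (1 at an unadjusted p under 0.05), and 1 was called at 14 days, as higher. That gene was Ptprz1, a receptor-type phosphatase of glia and their precursors. It had 34.8, 47.9, 68.1, 69.6 and 81.9 in 14-day Ang II arteries, against 22 at the lowest and 37.4 at the highest in sham arteries, with 4 of 5 infused libraries above the sham range. Its log2 fold change was 1.03 (limma adjusted p = 0.00843) at 14 days and 0.57 (adjusted p = 0.293) at 7 days. The list's median log2 fold change was -0.05 at 7 days and 0.03 at 14 days.

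Of 16 genes for myelin proteins and lipids, 13 were tested, and 0 were called at 7 days (0 also at an unadjusted p under 0.05). At 14 days 2 were called, 1 in each direction, and 5 had an unadjusted limma p under 0.05, against 24.6% of all genes. The list's median log2 fold change was -0.0006 at 7 days, with 6 of 13 above 0. It was -0.26 at 14 days, with 3 of 13 above 0. The summed value of the list was 179 ± 39.5 in 14-day Ang II arteries and 222 ± 66.8 in 14-day sham arteries (SD). Gldn (gliomedin, which gathers sodium channels at nodes of Ranvier) was higher, at 8.23, 6.83, 13.8, 11.6 and 10.8 in Ang II arteries, against 4.47 to 7.19 in sham arteries (log2 fold change 0.77, adjusted p = 0.0232). That call was lost without any one of Ang II 14-day replicates 3, 4 and 5 (adjusted p = 0.0819, 0.068 and 0.0602) or 14-day sham replicate 6 (0.0518). Gjb1 (connexin 32, of myelin and of exocrine and liver cells) was lower, at 6.77, 10.5, 6.38, 7.24 and 8.71 in Ang II arteries, against 9.36 to 24.6 in sham arteries (log2 fold change -0.96, adjusted p = 0.00859), and was at an adjusted p of 0.0513 when only the 14-day groups were fitted. Pancreatic acinar genes were lower too, 9 of 10 called at 14 days, with a summed value of 46637 to 87061 in Ang II arteries, against 74920 to 156384 in sham arteries, and their part in the Gjb1 result was not tested.

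In the neuregulin and ErbB list, 8 of 9 genes were tested, 0 called at 7 days (1 at an unadjusted p under 0.05) and 1 called at 14 days. Bace1, the protease that cleaves neuregulin-1, was higher, at 75.3, 59.0, 75.4, 72.1 and 68.9 in Ang II arteries, against 43.2 to 55.8 in sham arteries, without overlap. Its log2 fold change was 0.49 (adjusted p = 0.00632) at 14 days and 0.12 (adjusted p = 0.793) at 7 days. The ligand Nrg1 was low, at most 4.37 in any library, with log2 fold changes of -0.20 (adjusted p = 0.954) and 0.41 (adjusted p = 0.634). The co-receptor Erbb2 had 0.01 (adjusted p = 0.991) and 0.11 (adjusted p = 0.664).

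Of 12 transcription regulators of Schwann cells, 7 were tested and limma called 0 at either time (0 at an unadjusted p under 0.05). Among them Egr2, the master regulator of myelination and also an immediate early gene of many cells, varied from 2.68 to 36.3 between libraries. Its log2 fold change was 0.21 (adjusted p = 0.964) at 7 days and 0.89 (adjusted p = 0.376) at 14 days. Jun, a driver of the repair state, had -0.13 (adjusted p = 0.940) and 0.49 (adjusted p = 0.243). Of 10 repair Schwann cell genes 7 were tested, with 0 called at 7 days (2 at an unadjusted p under 0.05) and 1 called at 14 days. Bdnf, a neurotrophin that repair Schwann cells, neurons and muscle cells make, was higher, at 1.93, 0.945, 1.71, 2.17 and 2.48 in Ang II arteries, against 0.227 to 0.75 in sham arteries, without overlap. Bdnf passed the filter on low values only through infused libraries (4 at 14 days and 1 at 7 days, against 0 sham libraries at 1 or more), so it was tested because it was high there, and its call supports nothing about the list. Its log2 fold change was 1.14 (adjusted p = 0.00404) at 14 days and 0.59 (adjusted p = 0.252) at 7 days.

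These 14-day calls were lost when the leading digits of the animal numbers entered the fit. Only numbers starting with 26 occur in both 14-day groups, with 3 infused and 4 sham animals. With the leading digits as a term the fit rests on these, 14 genes were called higher and 2 lower in all, and the calls were lost for Ptprz1 (log2 fold change 0.80, adjusted p = 0.182), Gldn (0.64, 0.257), Gjb1 (-1.08, 0.0842), Bace1 (0.49, 0.110) and Bdnf (0.82, 0.172). The directions were as before. What the leading digits stand for is not in the labels.

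Axons were followed by neuron genes. Of 19 neuron and axon genes tested, 2 had log2 fold changes above 0 at 7 days, with a list median of -0.49. At 14 days 17 were above 0, with a median of 0.37. A few libraries stood far above the rest in the summed value of the list. It was 2204 in 7-day sham replicate 1, against 80.26 to 216.1 in the other 7-day sham libraries. Ang II 14-day replicates 1 and 3 had 654.7 and 877.8, against 91.57 to 99.3 in the rest of their group. How far such libraries set the counts of the list was not tested. Limma called 0 of the 19 at 7 days (1 at an unadjusted p under 0.05) and 1 at 14 days. The called gene was Vip, a dilator neuropeptide, which was lower and so went against most of its list. It had 5.73, 12.8, 6.98, 11.5 and 13.2 in Ang II arteries, against 15.8 to 34.0 in sham arteries, a log2 fold change of -1.2 (adjusted p = 0.0224) at 14 days. That call was lost without Ang II 14-day replicate 3 (adjusted p = 0.0745) and with the leading digits as a term (0.137). At 7 days Vip had a log2 fold change of 0.40 (adjusted p = 0.765), and the difference between the times was -1.60 (adjusted p = 0.449). Th, tyrosine hydroxylase of sympathetic nerve cell bodies, was above 10 in 6 libraries, between 13.1 and 218, and at most 2.21 in the other 17. Those 6 were Ang II 7-day replicate 1, 7-day sham replicates 1 and 3, Ang II 14-day replicates 1 and 3 and 14-day sham replicate 1, which does not follow the groups. Th had log2 fold changes of -0.65 (adjusted p = 0.957) and 1.19 (adjusted p = 0.689).

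Member levels and Th went together in part of the libraries. Of the 6 libraries with all 8 members above their group mean, 3 were among the libraries with high Th and 3 were not. In Ang II 14-day replicate 3, with the highest Cdh19 of the series, Th was 83.2; in 14-day sham replicate 6, with a Cdh19 of 115, it was 2.21. Ngfr, the p75 neurotrophin receptor of sympathetic neurons and of immature and repair Schwann cells, had its 6 highest values, 12.5 to 101, in the 6 libraries with high Th. Gap43, a growth cone protein, also had its highest values, 48.7, 19.3 and 14.0, in such libraries. The log2 fold changes were -0.32 (adjusted p = 0.956) and 0.98 (adjusted p = 0.478) for Ngfr, and -0.25 (adjusted p = 0.964) and 0.23 (adjusted p = 0.878) for Gap43. Neuronal and Schwann cell transcripts of these genes cannot be told apart in whole arteries.

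**Figure D5:**
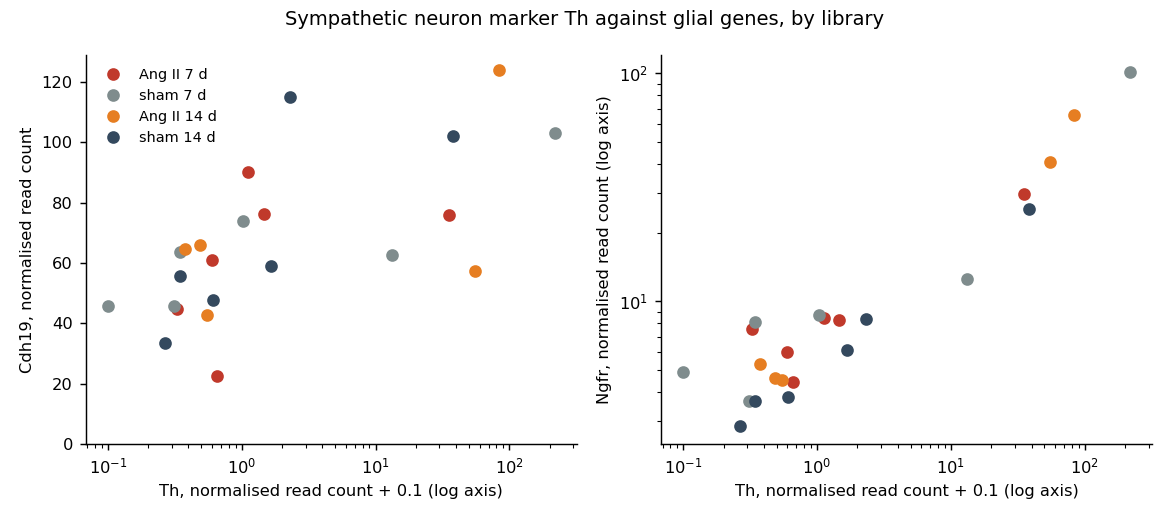
Cdh19 (left, linear y axis) and Ngfr (right, log y axis) against Th (x axis, log, value + 0.1) in normalised read counts, 1 point per library, coloured by group. Ngfr is high, 12.5 to 101, in the 6 libraries with Th above 10, whereas Cdh19 reaches 115 in a library with a Th of 2.21.

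Genes of neighbouring tissue also varied between libraries beside the members. The summed value of 6 epithelial markers was 732.9 and 758.6 in Ang II 7-day replicate 6 and 14-day sham replicate 4, the highest of the series, and all 8 members were below their group mean in both. It was 216.5 in Ang II 14-day replicate 3, the lowest, where all 8 were above. Not all libraries went this way. The sum was 449.2 in Ang II 7-day replicate 4, where all 8 members were above, and 388.4 in replicate 5, where all 8 were below. Over the 23 libraries, group-centred values of the members had Pearson's r from -0.83 (Sox10) to -0.27 (Erbb3) with this sum. By group the epithelial sum ran from 258 to 733 after 7 days of Ang II, against 241 to 601 in sham arteries. After 14 days it ran from 216 to 338, against 262 to 759 in sham arteries. The summed value of 9 adipocyte markers ran from 1005 to 1941 in 14-day Ang II arteries, against 439 to 2333 in sham arteries. The members' r with the adipocyte sum ran from 0.13 (Erbb3) to 0.69 (Mbp). The 4 perineurial markers, of the sheath around nerve bundles, summed to 292.8 in Ang II 14-day replicate 3, the highest of the series. Their sum had r from 0.49 (S100b) to 0.81 (Mbp and Erbb3) with the members. The part of these tissues in the member values was not tested.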

How the data were processed

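The members and gene lists were chosen with earlier results of these data known. The authors deposited 1 table of normalised signal values, with 39179 genes in rows and 23 libraries in columns. Software named in the submitters' processing notes comprised STAR 2.3.1 and HTSeq 0.5.3p3, besides edgeR 3.6.8 under R 3.2.3, and the build was mm10. The sources used here give neither the annotation nor the strand setting or normalisation. Per the labels' protocols, a stranded total RNA kit was used. In each library every value above 0 was a whole multiple of the smallest one (100% of 460324 values, tolerance 0.001 read), which gave back whole reads.

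Tests used limma 3.58.1 (R 4.3.3, trended robust empirical Bayes) on log2(value + 0.5), a scale that understates changes of low genes. Genes with a value of 1 or more in at least 5 libraries entered (14896 genes). One model with 4 group means took all 23 libraries. Benjamini-Hochberg adjustment ran over all genes of a comparison, at a threshold of 0.05. As alternatives, edgeR 4.0.16 and DESeq2 1.42.0 were run on recovered reads, and scaling, pseudocount, filter, leading digits of the animal number and single libraries were varied (closing section). Only the limma fit was tried on simulated data, and the edgeR and DESeq2 fits were not. The ratio to Cdh19, and 2 of the alternatives for the correlations between members (TMM scaling and leaving out Ang II 14-day replicate 3), were chosen after seeing the data. Genes were named by a rule: the members, further Schwann cell and axon genes (some of which are not reported here), list genes called in a comparison or with the smallest p, and the genes most like the members. Gene positions and exon lengths are from GENCODE M21. Each library is a separate animal, and p-values measure the spread between animals.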

Additional observations from a re-analysis of the deposited data

Results flagged for a closer look

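In 5 of 32 combinations of a member gene with a group, 1 library stood far from the others by its gap to the nearest relative to the group's range. For a single combination chance gives about 1 in 20. The combinations are not independent, because 4 of the 5 came from 1 library and the members correlate. The 5 were therefore not set against that rate. Ang II 14-day replicate 3 was that library for 4 genes, with 22.3 normalised reads for Sox10, 84.9 for Mbp, 124 for Cdh19 and 11.5 for Foxd3. In 7-day sham replicate 1 it was S100b, at 19.8. Both libraries also have high Th, at 83.2 and 218.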

How the results depend on the processing

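The counts of member genes called were 0 in each direction in every comparison and under every alternative run, leaving out each library in turn included, except that scaling to total reads called 1 member, Pmp22, higher at 7 days and 1 at 14 days. That scaling moved the median log2 fold change of all genes by 0.22 and 0.25. Apart from Pmp22, the members' 95% intervals spanned 0 at both times, and 53 of 400 alternative values of member fold changes changed sign, none of Pmp22. The log2 fold changes that changed sign are these. At 7 days, with scaling to total reads they were 0.14 for Sox10, 0.12 for S100b, 0.22 for Mbp, 0.075 for Cdh19, 0.19 for Erbb3, 0.13 for Prx, 0.21 for Foxd3. With upper-quartile scaling they were 0.0066 for Mbp, 0.0098 for Foxd3. With TMM scaling they were 0.00039 for Foxd3. With edgeR they were 0.019 for Mbp, 0.13 for Foxd3. With DESeq2 they were 0.0037 for Mbp, 0.087 for Foxd3, -0.0068 for Erbb2. With the leading digits of the animal number as a term they were 0.015 for Mbp, -0.0043 for Erbb2. With a pseudocount of 1 they were 0.00098 for Foxd3. Within numbers starting with 27 they were 0.21 for Mbp, 0.13 for Cdh19, 0.21 for Foxd3, -0.15 for Erbb2. Within numbers starting with 28 they were 0.061 for Sox10, 0.23 for S100b, 0.028 for Erbb3, 0.090 for Prx, -0.76 for Egr2, 0.049 for Ngfr, 0.41 for Gap43. At 14 days, with scaling to total reads they were 0.066 for Mbp, 0.17 for Erbb3, 0.19 for Prx. With edgeR they were 0.0016 for Prx. With the leading digits of the animal number as a term (and equally within numbers starting with 26) they were 0.23 for Prx, -0.038 for Erbb2. Leaving out 1 library at a time gave these ranges of log2 fold changes at 7 days, -0.26 to 0.10 for Sox10, -0.21 to 0.051 for S100b, -0.10 to 0.11 for Mbp, -0.29 to 0.10 for Cdh19, -0.12 to 0.021 for Erbb3, -0.17 to 0.059 for Prx, -0.17 to 0.17 for Foxd3, -0.17 to 0.52 for Egr2, -0.66 to 0.30 for Ngfr, -0.62 to 0.44 for Gap43, -0.50 to 0.18 for Nrg1, -0.050 to 0.056 for Erbb2, -1.47 to 0.57 for Th. The ranges at 14 days were -0.015 to 0.38 for Sox10, -0.14 to 0.25 for Cdh19, -0.27 to 0.066 for Prx, -0.27 to 0.62 for Gap43, -0.023 to 0.23 for Erbb2. The cause was not tested. All-gene counts at 14 days were 602 higher and 300 lower, 3738 and 90 with scaling to total reads, 883 and 358 with edgeR, 1029 and 766 with DESeq2, 410 and 163 with no filter, 283 and 101 when only those 2 groups were fitted, and 14 and 2 with the leading digits as a term. At 7 days they were 112 and 10, against 692 and 2 with scaling to total reads, 173 and 39 with DESeq2, 4 and 0 within numbers starting with 27 and, by limma, 0 and 0 within 28 (1045 at an unadjusted p under 0.05). Single libraries moved these counts by over 1.5 times. At 14 days they were 1408 and 783 without Ang II replicate 2, 338 and 76 without 3, 281 and 116 without 4, 318 and 124 without 5, 393 and 151 without sham replicate 2, 360 and 143 without 3, 373 and 149 without 4, and 398 and 225 without 6. At 7 days they were 64 and 4 without Ang II replicate 1, 62 and 6 without 6, 74 and 11 without sham replicate 1, and 93 and 6 without 2. Each library came from its own animal, so no paired analysis was run. The labels give no replicate numbers, and those used here follow the order of the samples within each group. Foxd3 and Prx rest on as few as 20 and 10 reads in a library, which limits their precision by counting error alone.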

Other observations

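Ratios to Cdh19 in the same library were chosen after the values were seen. They remove a level shared with Cdh19 only for a gene that varies as much as Cdh19. The within-group SD (log2) was 0.61 for Cdh19, against 0.19 for Pmp22 and 0.277 for Erbb3. Ratios of such genes therefore also carry the variation of Cdh19 itself. What a shared level stands for was not tested. Over 14 comparisons (7 genes at 2 times) none passed an exact two-sided permutation test after adjustment, the lowest adjusted p being 0.53. The S100b to Cdh19 ratio was 0.137 ± 0.0344 in 14-day Ang II arteries and 0.19 ± 0.0573 in 14-day sham arteries (SD), with an exact permutation p of 0.0909 before adjustment. The Mbp to Cdh19 ratio was 0.773 ± 0.202 in 14-day Ang II arteries and 0.934 ± 0.185 in 14-day sham arteries (exact permutation p = 0.152). At 7 days the Pmp22 to Cdh19 ratio was 1.98 ± 0.935 in Ang II arteries and 1.38 ± 0.278 in sham arteries (exact permutation p = 0.108). The highest of these ratios, 3.78, was in Ang II 7-day replicate 6, where Cdh19 was at its lowest, 22.6.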
